A study of Mus musculus with 2 samples.

Results

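Early spinous keratinocytes are the cells of the epidermis that have left the basal layer and switched from one keratin pair to another. They were picked from single-cell RNA profiles of mouse skin by the share of their RNA molecules that came from chosen genes, and 1529 of 11773 retained barcodes met the rule. Of these, 1009 came from the library labelled sitagliptin and 520 from the library labelled PBS. A barcode had to hold at least 500 genes and at least 3000 unique molecular identifiers (UMIs, one for each captured RNA molecule), with at most 10% of UMIs from mitochondrial genes. Krt1 and Krt10, the keratin pair of differentiating epidermis, had to make up at least 2% of UMIs and to exceed Krt5 and Krt14, the pair of the basal layer. Cells of the granular layer were left out by a limit of 0.5% on the sum of Lor, Flg, Flg2, Nccrp1 and Lce1m. Upper follicle cells were left out by at most 2 UMIs of Krt79, activated cells by a Krt16 share under 0.2%, and dividing cells by at most 1 detected gene of Mki67, Top2a, Cdk1, Ccnb1, Ccna2, Birc5, Ube2c and Cenpf. The levels of these genes therefore describe the choice of cells and are no finding.

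In the epidermis, basal cells divide on the basement membrane, and some of them detach, enter the spinous layers, stop dividing and make Krt1 and Krt10. Notch signalling helps start this switch, desmosomes tie the spinous cells to each other, and higher up the granular cells make the proteins and lipids of the skin barrier. Metallothioneins are small proteins that bind zinc and copper, and Mt4 is the member of the family known from stratified epithelia.

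The mice were of the C57Bl6 strain, 8 weeks old. The labels name both sexes. The sitagliptin-labelled library came from skin injected into the dermis with 100 ng of sitagliptin, an inhibitor of the peptidase DPP4, in 100 µl of PBS, and the PBS-labelled library from skin injected with PBS alone. A time of 48 h is named with the processing of the skin, without a clear starting point, and no source used here gives the number of mice per library or says whether they were pooled. A letter in the deposited name of each library is the initial of the other treatment, so the groups are called by their labels throughout, and an exchange would turn every direction between them. With 1 library per treatment no difference between treatments could be tested. Intervals are 95% intervals for counting error only and leave out the spread between mice, which is unknown here. Those of gene levels and ratios take the UMIs of a gene as independent. They therefore also leave out the spread between cells and are too narrow for genes whose UMIs gather in some cells.

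The early spinous cells held 10277675 UMIs in the sitagliptin-labelled library and 6975240 UMIs in the PBS-labelled library. The median cell had 7948 UMIs and 2555 genes in the sitagliptin-labelled library, against 10862 UMIs and 3068 genes in the PBS-labelled library. Mitochondrial genes took a median of 5.46% of UMIs in the sitagliptin-labelled and 5.75% in the PBS-labelled library. Of all barcodes, 75 occurred in both libraries, among them 2 of the sitagliptin-labelled and 4 of the PBS-labelled early spinous cells, and none was early spinous in both. Doublets were not removed. Levels are given as CPM, the UMIs of a gene summed over the early spinous cells of a library, per 1000000 UMIs of all genes in those cells. Where a value is followed by sitagliptin or PBS in parentheses, the word names the label of its library.

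RNA of other cell types also differed between the libraries. Retained barcodes with under 0.5% of UMIs from the keratins Krt1, Krt10, Krt5 and Krt14, called keratin-low, numbered 156 in the sitagliptin-labelled and 1169 in the PBS-labelled library. They differed in kind between the libraries. In them 9 upper follicle markers summed to 17239 (sitagliptin) and 5313 CPM (PBS), and 9 sebocyte markers to 7456 (sitagliptin) and 1534 CPM (PBS). There 12 macrophage markers summed to 1422 (sitagliptin) and 13533 CPM (PBS), and 8 fibroblast markers to 1089 (sitagliptin) and 11617 CPM (PBS). A comparison with keratin-low barcodes is thus not one with a single kind of cell. Inside the early spinous cells the 12 macrophage markers summed to 10.6 CPM in the sitagliptin-labelled library, where 11 were detected and Pf4 was at 0, and to 367 CPM in the PBS-labelled library, where 12 were detected. At least 1 UMI of these markers was found in 7.63% of sitagliptin-labelled and 77.5% of PBS-labelled early spinous cells. The 8 fibroblast markers summed to 43.3 CPM in the sitagliptin-labelled and 128 CPM in the PBS-labelled library and the 5 muscle markers to 8.08 and 32.5 CPM, with Acta1 at 0 in the sitagliptin-labelled library and at 13.9 CPM in the PBS-labelled one. The part of such RNA in the differences given here was not tested, except where a value without the cells that carry it stands beside the result.

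Sbsn, Dmkn and Krtdap, 3 neighbours on chromosome 7, code for small secreted proteins of differentiating keratinocytes. Each had a UMI in all or nearly all early spinous cells of both libraries. Their start regions are shown because all of them hold the same short motif. Krtdap lies at chr7:30787896-30791097, Dmkn at chr7:30763756-30781063 and Sbsn at chr7:30751471-30756134 of mm10, all on the plus strand. Sbsn overlaps Tmem147os, and RNA of the pair may not be told apart. The sequences are RefSeq promoter windows on GRCm38.p6, from 250 bases before the start to 10 bases after it, read from the plus strand at chr7:30787655-30787914 for Krtdap, chr7:30751221-30751480 for Sbsn and chr7:30763506-30763765 for Dmkn. Capitals mark TGAGTCA, the letters that AP-1 factors such as Jun and Fos are known to bind.
Krtdap: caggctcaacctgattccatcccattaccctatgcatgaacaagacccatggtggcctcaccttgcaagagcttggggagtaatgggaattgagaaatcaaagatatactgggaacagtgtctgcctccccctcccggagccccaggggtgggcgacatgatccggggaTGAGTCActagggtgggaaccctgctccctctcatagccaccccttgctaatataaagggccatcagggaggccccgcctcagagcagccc
Sbsn: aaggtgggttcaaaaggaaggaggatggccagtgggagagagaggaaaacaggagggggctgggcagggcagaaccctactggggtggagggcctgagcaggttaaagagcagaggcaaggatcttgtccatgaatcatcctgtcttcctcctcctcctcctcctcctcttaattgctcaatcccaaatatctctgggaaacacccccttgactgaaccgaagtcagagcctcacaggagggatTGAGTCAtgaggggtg
Dmkn: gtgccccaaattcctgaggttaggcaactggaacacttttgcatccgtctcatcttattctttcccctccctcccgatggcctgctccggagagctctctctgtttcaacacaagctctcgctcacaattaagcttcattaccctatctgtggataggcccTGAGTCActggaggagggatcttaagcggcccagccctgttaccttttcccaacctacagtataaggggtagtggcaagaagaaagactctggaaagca
Counted from the start of each RefSeq window's gene, the motif lies 81 to 75 bases before the start for Krtdap and 89 to 83 bases for Dmkn. In Sbsn it begins 6 bases before the start and ends on its first base. For Krtdap this RefSeq start lies a few bases downstream of the gene start given above, while for Sbsn and Dmkn the starts are the same. On either strand TGAGTCA occurred in 1526 of 32851 windows of this length in the same table, or 4.65%. It was looked for after the sequences had been seen, and a match of letters is a description, not a site of binding. Dmkn has 3 windows in the table, and the one nearest the annotated start is printed.

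The label early spinous was checked against markers outside the rule. Krtdap, a secreted protein named for its link to keratinocyte differentiation, stood at 14106 CPM in the sitagliptin-labelled and 14157 CPM in the PBS-labelled library. Mt4 stood at 1251 (sitagliptin) and 1457 CPM (PBS). Both were present in nearly all cells: Krtdap had a UMI in all 1009 sitagliptin-labelled cells and in 519 of the 520 PBS-labelled cells, and Mt4 in 92.2% and 92.3%. After each cell was thinned to 3000 UMIs to remove the difference in depth, Mt4 was found in 82.6% of sitagliptin-labelled and 82.5% of PBS-labelled early spinous cells. Keratin-low barcodes, whose kind differed between the libraries, had thinned shares of Mt4 of 10.3% (sitagliptin) and 8.30% (PBS). Their median depths before thinning were 5512 and 5441 UMIs. Both genes were named with the label with these data known, so their presence is no independent support for it. Krt2, a keratin of the upper layers of ear and tail skin, had only 11 and 8 UMIs.

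Values just inside and just outside the keratin limit were set side by side. With Krt1 and Krt10 between 2% and 2.2% of UMIs, 54 sitagliptin-labelled cells had 1043 CPM of Mt4 and 10180 CPM of Krt77, and 36 PBS-labelled cells had 1067 and 8469 CPM. With 1.8% to 2% the rule was missed, and the 40 sitagliptin-labelled cells there had 1154 CPM of Mt4 and 9845 CPM of Krt77, against 1663 and 9685 CPM in 21 PBS-labelled cells.

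Early spinous cells made up 14.8% of retained barcodes in the sitagliptin-labelled library (exact Clopper-Pearson interval 13.96 to 15.66) and 10.5% in the PBS-labelled library (9.65 to 11.4), a ratio of 1.41 (1.27 to 1.57). The direction depended on the depth a barcode had to reach: with at least 1000 UMIs in place of 3000 the 1689 sitagliptin-labelled early spinous cells were 9.19% of retained barcodes and the 606 PBS-labelled ones 10.2%, a ratio of 0.900. Without cells that held a UMI of other cell types' markers the ratio was 9.87. It was 9.58 when Trbc2 and Mylpf were not counted among these, a setting chosen after the data had been seen. Only early spinous cells were filtered in this way, not the retained barcodes they were divided by. The filter left 258 of 1009 sitagliptin-labelled and 19 of 520 PBS-labelled cells, or 870 and 66 in the later setting. Both ratios thus depend on how many early spinous cells held such RNA in each library and do not measure shares of cells alone. Among cells of the spinous, basal and granular choices together, early spinous cells were 58.6% in the sitagliptin-labelled library (56.2 to 60.9) and 44.0% in the PBS-labelled library (41.1 to 46.9). This share was not recomputed with other depth limits, so whether it depends on them is unknown. The median basal cell had 4389 (sitagliptin) and 6761 UMIs (PBS). Shares in such libraries depend on how the skin was taken apart, and no spread between mice is known.

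The place of these cells between the layers below and above was described with basal cells, in which Krt5 and Krt14 reached 2% and exceeded Krt1 and Krt10 (611 sitagliptin-labelled and 619 PBS-labelled cells), and granular cells, in which the sum of Lor, Flg, Flg2, Nccrp1 and Lce1m reached 0.5% (103 and 43 cells). The comparison has no test, since the cells were sorted by their own RNA. A gene was counted as higher or lower when it had at least 20 CPM in one of the cell sets compared and differed at least 1.5-fold the same way in both libraries, on the scale of CPM + 1. Against basal cells 14.4% of 6583 genes were higher and 15.4% were lower in early spinous cells. Against granular cells 20.2% of 6120 genes were higher and 11.1% were lower. Granular and basal cells differ in depth from the early spinous cells: their median cell had 11780 and 13961 UMIs in the granular set and 4389 and 6761 UMIs in the basal set.

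Genes of early differentiation outside the rule all stood above the basal level. Of 22 listed genes 21 could be compared, and 21 were higher than in basal cells and 0 lower, while against granular cells 1 was higher and 12 were lower. Krtdap stood at 14106 CPM in sitagliptin-labelled early spinous cells and at 2017 CPM in basal and 30179 CPM in granular cells of that library, and at 14157, 1469 and 33805 CPM in the PBS-labelled library. Sbsn followed the same order, with 7156 CPM between 875 in basal and 18344 in granular cells of the sitagliptin-labelled library, and 6195 CPM between 577 and 19442 in the PBS-labelled library. Dmkn had 6147 CPM in early spinous cells against 2134 CPM in basal and 12397 CPM in granular cells of the sitagliptin-labelled library, and 5360, 2028 and 11855 CPM in the PBS-labelled library. All 3 genes thus stood higher in each layer than in the one below it, in both libraries. Krt77, a type II keratin, behaved alike, at 18311 and 15713 CPM in early spinous cells, 1413 and 774 CPM in basal cells and 26808 and 24068 CPM in granular cells of the sitagliptin-labelled and PBS-labelled libraries.

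Mt4 did not follow that order and was highest in the early spinous cells of both libraries. It had 1251 CPM in sitagliptin-labelled early spinous cells, 277 CPM in basal and 581 CPM in granular cells, and 1457, 234 and 459 CPM in the PBS-labelled library. The other metallothioneins, Mt1 and Mt2, declined with each layer instead. Mt1 had 665 CPM in sitagliptin-labelled early spinous cells between 1163 in basal and 317 in granular cells, and 648 CPM between 1124 and 252 in the PBS-labelled library. Mt2 had 307 CPM between 862 and 232 in the sitagliptin-labelled library, and 244 CPM between 797 and 164 in the PBS-labelled library. Mt4 had a peak where its relatives on chromosome 8 had a slope, in both libraries (Mt4 at chr8:94137197-94139031, Mt2 at chr8:94172664-94173568 and Mt1 at chr8:94179082-94180327 of mm10).

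**Figure D1:**
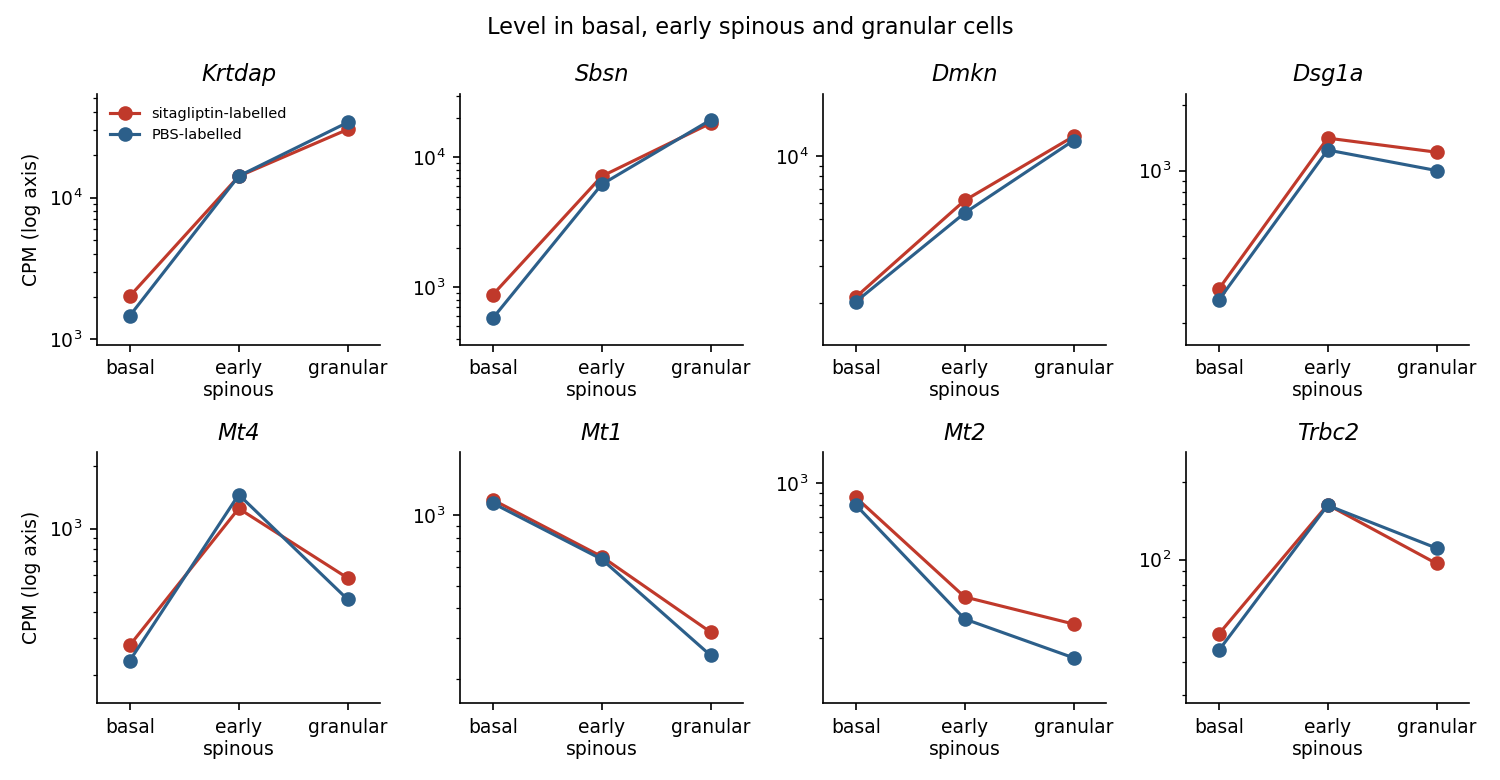
Level of 8 genes in basal, early spinous and granular cells, in CPM on a log axis, with 1 point per library and set of cells (red, sitagliptin-labelled; blue, PBS-labelled; no error is drawn, since there is 1 library per treatment). Krtdap, Sbsn and Dmkn climb from layer to layer, Mt4, Dsg1a and Trbc2 are highest in early spinous cells, and Mt1 and Mt2 decline.

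Desmosome genes were mostly higher than in basal cells. Of 13 compared, 10 were higher and 2 were lower, and against granular cells 3 of 12 were higher and 2 were lower. Dsp, the plakin that links desmosomes to keratin, stood at 5383 and 4179.6 CPM in early spinous cells of the sitagliptin-labelled and PBS-labelled libraries, against 2471 and 2018 CPM in basal cells. Dsg1a, the desmosomal cadherin of suprabasal layers, stood at 1408 (sitagliptin) and 1242 CPM (PBS), against 287 (sitagliptin) and 256 CPM (PBS) in basal cells and 1214 (sitagliptin) and 1001 CPM (PBS) in granular cells. The lower ones were cadherins of other desmosomes: Dsg3 had 21.8 (sitagliptin) and 20.1 CPM (PBS) against 78.2 (sitagliptin) and 67.5 CPM (PBS) in basal cells, and Dsg2 had 13.5 (sitagliptin) and 15.1 CPM (PBS) against 75.4 (sitagliptin) and 96.9 CPM (PBS). The basement adhesion genes went the other way, with 0 of 15 higher and 14 lower than in basal cells. Col17a1, the collagen of hemidesmosomes, had 374 (sitagliptin) and 320 CPM (PBS) against 1444 (sitagliptin) and 1586 CPM (PBS) in basal cells, and Itgb4, the integrin chain of hemidesmosomes, had 48.4 (sitagliptin) and 34.6 CPM (PBS) against 259 (sitagliptin) and 296 CPM (PBS).

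Notch genes were split. Of 12 compared, 4 were higher and 2 were lower than in basal cells. The receptors Notch3, at 83.0 (sitagliptin) and 72.5 CPM (PBS) against 19.2 (sitagliptin) and 12.3 CPM (PBS) in basal cells, and Notch2, at 60.2 (sitagliptin) and 59.1 CPM (PBS) against 17.6 (sitagliptin) and 20.1 CPM (PBS), were higher in the early spinous cells of both libraries. So was the feedback inhibitor Nrarp, a Notch target, at 134 CPM in both libraries against 33.6 (sitagliptin) and 30.9 CPM (PBS) in basal cells. The ligand Jag2 was lower, at 28.6 (sitagliptin) and 18.9 CPM (PBS) against 160 (sitagliptin) and 165 CPM (PBS) in basal cells, as was the ligand Dll1, at 5.25 (sitagliptin) and 5.59 CPM (PBS) against 27.0 (sitagliptin) and 25.5 CPM (PBS). Jag1, the ligand known from suprabasal cells, had 42.9 (sitagliptin) and 40.7 CPM (PBS) in early spinous cells and 45.9 (sitagliptin) and 41.4 CPM (PBS) in basal cells. Notch1 was not among the higher genes, at 113 (sitagliptin) and 130 CPM (PBS) against 137 (sitagliptin) and 161 CPM (PBS) in basal cells. The receptors thus did not go one way.

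Among transcription factors of the epidermis 13 of 26 were higher and 2 lower than in basal cells. Klf4, a factor of barrier formation, stood at 873 and 829 CPM, between 386 and 359 CPM in basal and 1160 and 1067 CPM in granular cells of the sitagliptin-labelled and PBS-labelled libraries. Grhl1 had 252 (sitagliptin) and 248 CPM (PBS) against 53.4 (sitagliptin) and 57.0 CPM (PBS) in basal cells, and Zfp750, a factor of terminal differentiation, 156 (sitagliptin) and 143 CPM (PBS) against 26.4 (sitagliptin) and 23.6 CPM (PBS). Ovol1, known for the exit from the cell cycle, had 78.8 (sitagliptin) and 79.9 CPM (PBS) against 27.3 (sitagliptin) and 15.9 CPM (PBS). Trp63, the factor of basal identity, stood at 375 (sitagliptin) and 262 CPM (PBS), below its basal 608 (sitagliptin) and 469 CPM (PBS) and above its granular 169 (sitagliptin) and 103 CPM (PBS).

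Of the barrier lipid genes 16 of 19 were higher than in basal cells and 0 lower, and 12 of 20 were lower than in granular cells and 0 higher. Elovl4, the elongase of very long fatty acids for acylceramides, had 840 (sitagliptin) and 777 CPM (PBS) against 101 (sitagliptin) and 76.5 CPM (PBS) in basal cells. Acer1, an alkaline ceramidase, had 304 (sitagliptin) and 285 CPM (PBS), against 35.8 (sitagliptin) and 23.4 CPM (PBS) in basal and 254 (sitagliptin) and 207 CPM (PBS) in granular cells. The lipoxygenase Alox12b still stood at 37.8 (sitagliptin) and 28.4 CPM (PBS), against 327 (sitagliptin) and 336 CPM (PBS) in granular cells. Lipid genes were thus present at differing distances from their granular level. Of the proteases and inhibitors 10 of 17 were higher and 5 lower than in basal cells. Spink5, the inhibitor of epidermal kallikreins, had 993 (sitagliptin) and 722 CPM (PBS) against 113 (sitagliptin) and 50.6 CPM (PBS) in basal cells, and its target Klk7 had 319 (sitagliptin) and 265 CPM (PBS) against 33.0 (sitagliptin) and 15.7 CPM (PBS).

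The early spinous cells also differed among themselves. The measure used for their order was the share of Krt5 and Krt14 among the UMIs of Krt5, Krt14, Krt1 and Krt10, a share the rule holds under 50% and which is made of rule genes. Its median was 6.17% in sitagliptin-labelled and 2.61% in PBS-labelled cells. A share under 5% was found in 47.6% of sitagliptin-labelled and 59.8% of PBS-labelled cells. Cut points of 2.04% and 14.6%, which divide the 1529 cells of both libraries evenly, gave 289 low, 345 middle and 375 high cells in the sitagliptin-labelled library and 221 low, 164 middle and 135 high cells in the PBS-labelled library. These shares come from genes of the rule and are given as a description of the cells chosen. Since the libraries held low, middle and high cells in unequal numbers, differences were also computed with the 3 weighted equally, and that value is printed for the recomputed genes and lists quoted below whose ratio left its interval or whose median moved by over 0.1.

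**Figure D2:**
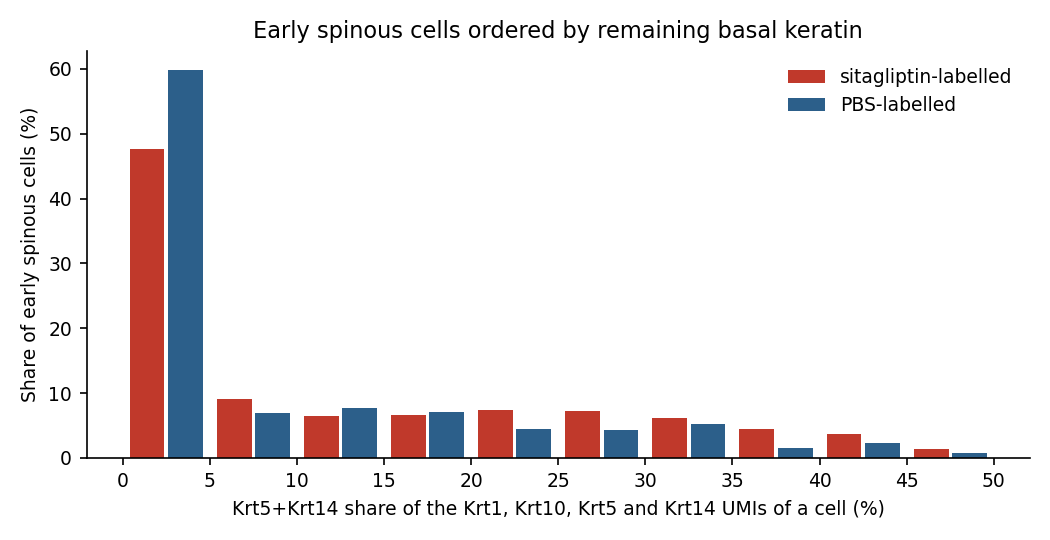
Share of early spinous cells (%) by the share of Krt5 and Krt14 among the UMIs of Krt1, Krt10, Krt5 and Krt14 of a cell (%), in bins of 5 percentage points, with red bars for the 1009 sitagliptin-labelled and blue bars for the 520 PBS-labelled cells. The lowest bin holds 47.6% of sitagliptin-labelled and 59.8% of PBS-labelled cells.

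Between high and low cells the direction was shared by the libraries for 80.4% of the 2956 genes with at least 50 CPM in either set. High cells had 51 genes, or 1.73%, at least 2-fold higher in both libraries and 0 at least 2-fold lower. At 1.5-fold, among 6237 genes with at least 20 CPM, 5.15% were higher and 2.36% lower in high cells of both libraries. High cells are deeper than low cells, with a median of 9374 against 7976 UMIs in the sitagliptin-labelled and 14816 against 10831 UMIs in the PBS-labelled library.

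Genes of the basement membrane and its receptors followed the remaining basal keratin. Of 14 basement adhesion genes 10 were higher in high cells and 0 lower. Itgb4 had 91.4 CPM in high against 5.02 CPM in low cells of the sitagliptin-labelled library, and 79.6 against 8.35 CPM in the PBS-labelled library. Col7a1, the collagen of anchoring fibrils, had 63.4 against 6.09 CPM (sitagliptin) and 56.7 against 6.61 CPM (PBS), and Lamb3, a laminin chain of the basement membrane, 67.0 against 3.94 CPM (sitagliptin) and 42.3 against 2.44 CPM (PBS). These messages were thus near 0 in low cells of both libraries. Among the 10 genes with the largest ratios in both libraries were also Slco2a1, a prostaglandin transporter, with 77.9 against 3.58 CPM in the sitagliptin-labelled and 68.8 against 2.09 CPM in the PBS-labelled library, and Cdh13, a cadherin without a cytoplasmic tail, with 98.8 against 3.22 CPM and 75.6 against 4.18 CPM. Fcgbp had 369.8 against 26.5 CPM (sitagliptin) and 424 against 26.5 CPM (PBS), and Postn, a matrix protein, 128 against 18.6 CPM (sitagliptin) and 110 against 5.57 CPM (PBS). Smoc2, Fam213a, Fbxo32 and Cpe completed these 10.

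The Notch ligand Jag2 was part of this gradient, with 57.0 CPM in high against 2.87 CPM in low cells of the sitagliptin-labelled library and 45.4 against 2.78 CPM in the PBS-labelled library. No other Notch gene of the 11 compared differed 1.5-fold both times. S100a6, a calcium-binding protein, had 145 CPM in low, 413 CPM in middle and 1097 CPM in high cells of the sitagliptin-labelled library, and 171, 440 and 1048 CPM in the PBS-labelled library. Mt2 had the same order in both libraries, with 124, 257 and 468 CPM in the sitagliptin-labelled and 123, 234 and 410.2 CPM in the PBS-labelled library. Mt4 had its highest value in middle cells, with 1326, 1378 and 1101 CPM in the sitagliptin-labelled and 1436, 1634 and 1335 CPM in the PBS-labelled library.

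Towards the high cells fewer genes were lower than higher. Among the 21 early differentiation genes 9 were lower in high cells and 0 higher, Sbsn among them, with 5780 CPM in high against 8750 CPM in low cells of the sitagliptin-labelled library and 4896 against 7501 CPM in the PBS-labelled library. Ivl, the envelope protein involucrin, had 136 against 249 CPM (sitagliptin) and 76.5 against 140 CPM (PBS), and Klk7 had 231 against 416 CPM (sitagliptin) and 168 against 322 CPM (PBS). Dkkl1 had 143 against 268 CPM (sitagliptin) and 118 against 217 CPM (PBS), and Mboat2, an acyltransferase of membrane lipids, 222 against 435 CPM (sitagliptin) and 175 against 318 CPM (PBS). The Skint genes, a family related to a selector of epidermal T cells, supplied 3 of the 10 genes lowest in high cells, Skint5, Skint6 and Skint9, and Gsdma and Tubb2b were also among these 10. Ovol1 was the only transcription factor of the 26 compared to pass 1.5-fold both times, with 62.0 against 106 CPM (sitagliptin) and 57.6 against 104 CPM (PBS).

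**Figure D3:**
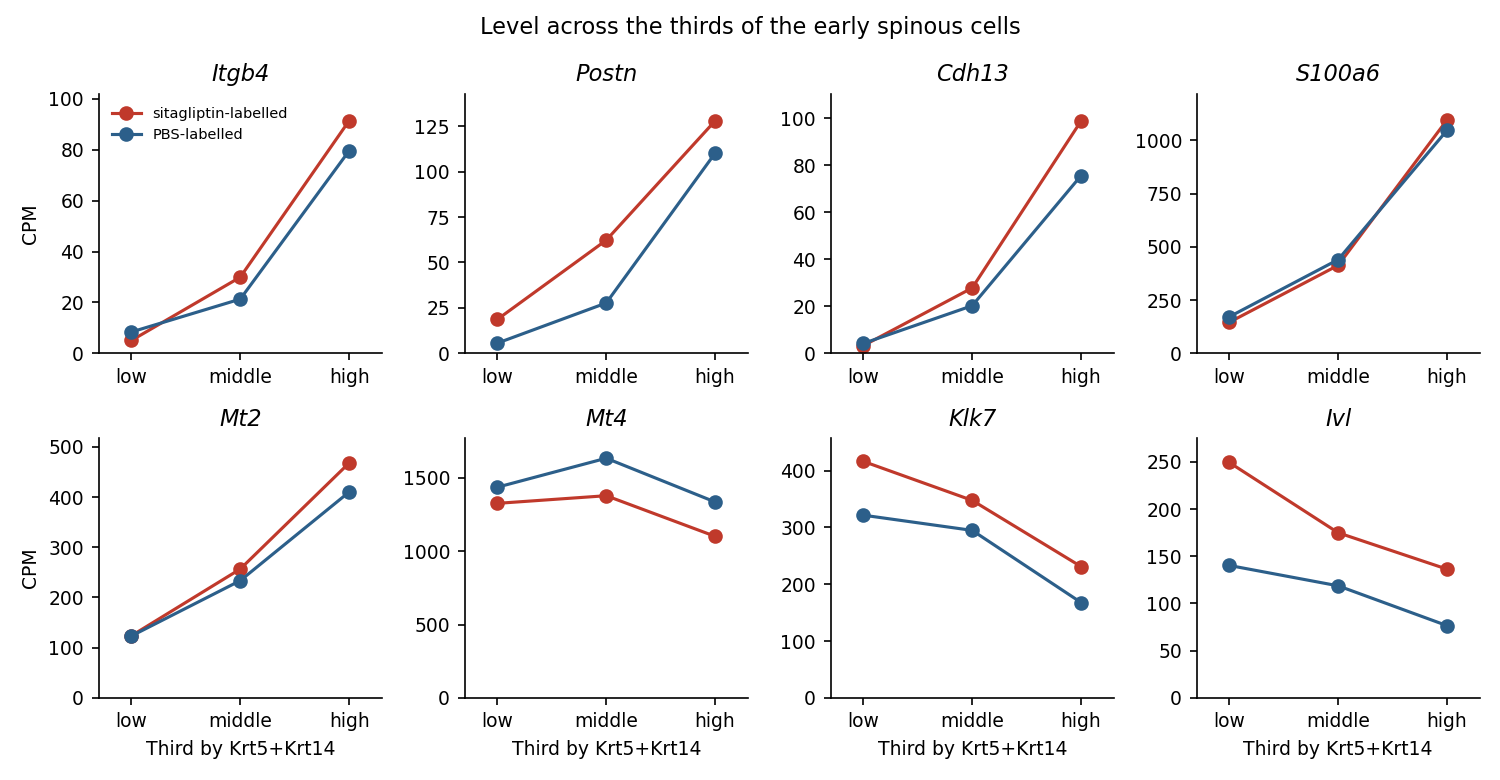
Level of 8 genes in early spinous cells with a low, middle or high share of Krt5 and Krt14, in CPM on axes that start at 0 (red, sitagliptin-labelled; blue, PBS-labelled; 1 value per library). Itgb4, Postn, Cdh13, S100a6 and Mt2 climb towards high cells, Klk7 and Ivl decline, and Mt4 is highest in middle cells.

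Variation between cells was also taken gene by gene, as the variance over the mean of UMIs in cells thinned to 3000 UMIs, a ratio of 1 being that of counting noise. Over 1310 genes with a mean of at least 0.3 the median ratio was 1.08 in sitagliptin-labelled and 1.09 in PBS-labelled cells, and 52 genes reached 2 in both. Krt77 had among the largest ratios outside the rule, at 19.4 and 22.7. Krt17, a keratin of follicles and wounds, reached 8.49 and 15.5, Sbsn 7.60 and 7.85, Krtdap 7.25 and 8.71, Krt15 6.19 and 6.49, and Mt4 4.90 and 4.81. Gm42418, a gene that overlaps ribosomal RNA, had the highest, at 57.8 and 84.1. Per 10000 UMIs the median cell held 10.2 Mt4 UMIs in the sitagliptin-labelled library, and the middle 80% of cells ranged over 1.17 to 30.7. In the PBS-labelled library the median was 11.9 and the range 1.09 to 35.2. Relative to its median Krtdap had a narrower range, at 128 (69.5 to 207) in the sitagliptin-labelled and 133 (70.1 to 219) in the PBS-labelled library. Its variance over the mean was nevertheless larger than that of Mt4, and so was its mean in thinned cells. That mean was 40.1 (sitagliptin) and 42.1 UMIs (PBS), against 4.25 (sitagliptin) and 4.77 UMIs (PBS) for Mt4. The ratio can grow with the mean, so it does not rank genes of unlike level by unevenness alone.

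Between the libraries the early spinous cells differed in few genes. Genes were compared where they had at least 50 CPM in either library and at least 20 UMIs in all, which left 3016. A gene at 50 CPM in 1 library only was thus let in by the library where it was higher. This bears on every count between the libraries below. Their median log2 ratio of sitagliptin-labelled over PBS-labelled was 0.01, and 97.3% lay within 1.5-fold. At least 2-fold higher in the sitagliptin-labelled library were 6 genes, 0.199% of those compared, and at least 2-fold lower were 11 genes, 0.365%. At 1.5-fold, 1.69% were higher and 1.03% were lower. Without cells holding a UMI of other cell types' markers, 229 genes were at least 2-fold higher and 204 lower, but 258 sitagliptin-labelled and 19 PBS-labelled cells were left. In cells thinned to 3000 UMIs 19 genes were at least 2-fold higher. Of the 6 genes, Flg2 belongs to the rule and mt-Atp8 is mitochondrial, which leaves Ptn, Nmt1, Dync1i2 and Nmt2. Of the 11, Hbb-bs, Hba-a1 and Hba-a2 are globins, Lyz2, C1qa, Ccl6, Cd74, H2-Aa and H2-Ab1 are macrophage or antigen-presenting cell genes, Ifi27l2a is an interferon-stimulated gene and Jun is an immediate early gene.

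Among the genes compared, the largest ratio upwards was that of Ptn, which codes for the growth factor pleiotrophin. It had 53.0 CPM in the sitagliptin-labelled and 15.8 CPM in the PBS-labelled library, a ratio of 3.36 (exact conditional binomial interval 2.74 to 4.17), and was found in 219 of 1009 and 65 of 520 cells. Its level was higher in basal cells of both libraries, with 172 (sitagliptin) and 83.4 CPM (PBS) in basal cells. With low, middle and high cells weighted equally the ratio of Ptn was 2.91. It left the interval in cells thinned to 3000 UMIs (2.36), at 5% mitochondrial UMIs or less (2.56) and with Krt1 and Krt10 at 4% or more (2.29). The same held with at least 1000 UMIs per barcode (4.38) and without cells holding a UMI of other cell types' markers (2.70, from 116 and 3 UMIs). Keratin-low barcodes held 358 (sitagliptin) and 88.3 CPM (PBS) of Ptn, and the part of such RNA was not tested.

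Several of the higher genes were also higher in basal cells. Nmt1, an enzyme that attaches myristate to proteins, had 205 CPM in sitagliptin-labelled and 83.4 CPM in PBS-labelled early spinous cells, a ratio of 2.46 (2.24 to 2.70), and 209 and 83.6 CPM in basal and 264 and 102 CPM in keratin-low barcodes. Its relative Nmt2 had 70.5 (sitagliptin) and 35.0 CPM (PBS), a ratio of 2.02 (1.74 to 2.34), and 70.0 (sitagliptin) and 33.6 CPM (PBS) in basal cells. Dync1i2, a chain of the dynein motor, had 328 (sitagliptin) and 154 CPM (PBS), a ratio of 2.13 (1.99 to 2.29), and 296 (sitagliptin) and 129 CPM (PBS) in basal cells. These ratios were thus about as large in basal cells of the same libraries. The same held for Dstn, an actin-severing protein, at 2254 (sitagliptin) and 1322 CPM (PBS) in early spinous cells and 1631 (sitagliptin) and 989 CPM (PBS) in basal cells, and for Btg1, an antiproliferative gene, at 518 (sitagliptin) and 279.7 CPM (PBS) and at 686 (sitagliptin) and 378 CPM (PBS) in basal cells. Eif2s2, a subunit of the initiation factor eIF2, had a ratio of 1.74 (1.66 to 1.83), Ppp2r3a, a regulatory subunit of phosphatase 2A, 1.89 (1.76 to 2.03), Slc38a2, an amino acid transporter, 1.90 (1.81 to 2.002) and Wdr89 1.86 (1.65 to 2.10). Nmt1 overlaps Dcakd and Gm26668 in the annotation, and the sources used here do not say whether counting used strand.

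Krt15, a keratin of basal and bulge cells, had 741 (sitagliptin) and 439 CPM (PBS), a ratio of 1.69 (1.62 to 1.76), and 1.48 with low, middle and high cells weighted equally. Its ratio was 1.39 at 5% mitochondrial UMIs or less, 1.95 with at least 1000 UMIs and 2.27 with Krt1 and Krt10 at 4% or more. Without cells holding a UMI of other cell types' markers it was 1.29, and 1.91 when Trbc2 and Mylpf were not counted among these. In basal cells it had 2290.0 (sitagliptin) and 2302 CPM (PBS).

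The lower genes named by size included those of antigen presentation. Cd74 and H2-Ab1, parts of the antigen presentation machinery of class II, had 41.1 and 21.2 CPM in the sitagliptin-labelled library, against 131 and 57.5 CPM in the PBS-labelled library. Cd74 was in 147 of 1009 (sitagliptin) and 128 of 520 cells (PBS), and keratin-low barcodes held 330 (sitagliptin) and 2515 CPM (PBS). A subset chosen after the data had been seen held 870 sitagliptin-labelled and 66 PBS-labelled early spinous cells. They had no UMI of the other cell types' markers, with Trbc2 and Mylpf not counted. There the ratio of Cd74 was 1.16, from 154 UMIs (sitagliptin) and 10 UMIs (PBS). H2-Ab1 stayed lower at a ratio of 0.559, from 74 UMIs (sitagliptin) and 10 UMIs (PBS). Markers of Langerhans and dendritic cells were not used to make this subset. Ifitm3, an interferon-inducible membrane protein, had 136 (sitagliptin) and 212 CPM (PBS), 1.56-fold lower (1.45 to 1.68), in that subset a ratio of 1.10, and 0.563 with low, middle and high cells weighted equally.

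Jun and its partners were lower. Jun had 142 CPM in the sitagliptin-labelled and 302 CPM in the PBS-labelled library, 2.13-fold lower (1.99 to 2.28), and was found in 516 of 1009 and 383 of 520 cells. Fos had 251 (sitagliptin) and 389.5 CPM (PBS), 1.55-fold lower (1.47 to 1.64), and Atf3 had 38.4 (sitagliptin) and 74.8 CPM (PBS), 1.95-fold lower (1.71 to 2.22). The list of genes that respond to taking tissue apart, to which these belong, had 0 of 18 genes higher and 7 lower by 1.5-fold, with a median log2 ratio of -0.53. Its heat shock members did not go one way: Hspb1 had 2162 (sitagliptin) and 1853 CPM (PBS), Hspa1b 351 (sitagliptin) and 340.1 CPM (PBS), and Hspa1a 130 (sitagliptin) and 213 CPM (PBS). In the subset without markers of other cells the ratio of Jun was 0.406. In basal cells Jun had 229 (sitagliptin) and 387 CPM (PBS) and Fos 362 (sitagliptin) and 361 CPM (PBS). Jun overlaps Junos in the annotation.

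Hbegf, a growth factor that binds the epidermal growth factor receptor, had 51.0 CPM in the sitagliptin-labelled and 100.2 CPM in the PBS-labelled library, 1.97-fold lower (1.75 to 2.21), and was found in 272 of 1009 and 236 of 520 cells. Another ligand of that receptor, Ereg, went the other way, at 19.8 (sitagliptin) and 8.89 CPM (PBS), a ratio of 2.22 (1.66 to 3.003). The receptor Egfr itself had 60.03 (sitagliptin) and 58.78 CPM (PBS) and its partner Erbb2 95.9 (sitagliptin) and 91.0 CPM (PBS). Of 5 members with at least 50 CPM, 0 were higher and 1, Hbegf, was lower by 1.5-fold.

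No compared gene of wounded and stressed epidermis was higher by 1.5-fold, but the sign of the list's median depended on the setting. The wound keratin Krt6a had 40.5 (sitagliptin) and 63.7 CPM (PBS), 1.57-fold lower (1.37 to 1.802), with 211 (sitagliptin) and 349 CPM (PBS) in basal cells. It reached 50 CPM in the PBS-labelled library only, where 1 cell held 70 of 444 UMIs. The ratio of Krt6a was 0.845 in thinned cells, 0.834 at 5% mitochondrial UMIs or less and 0.883 with Krt1 and Krt10 at 4% or more. In the subset of 870 sitagliptin-labelled and 66 PBS-labelled cells it was 0.230. After thinning Krt6a was found in 8.13% (sitagliptin) and 7.50% (PBS) of cells. Sprr1b, a precursor of the cornified envelope that rises in stressed epidermis, had 74.8 (sitagliptin) and 116 CPM (PBS), 1.54-fold lower (1.397 to 1.707), but without cells holding a UMI of other cell types' markers its ratio was 1.69, from 121 UMIs (sitagliptin) and 5 UMIs (PBS). Krt17 had 266 (sitagliptin) and 286 CPM (PBS), and after thinning to 3000 UMIs it was found in 30.7% of sitagliptin-labelled and 21.3% of PBS-labelled cells. Krt16, at 68.5 (sitagliptin) and 97.6 CPM (PBS), was limited by the rule. Of the other 4 genes compared on this list 0 were higher and 2 lower, with a median log2 ratio of -0.10 over 9 members with at least 20 UMIs. With Krt16 included the median was -0.30, and its sign was not stable: it was 0.03 with Krt16 under 0.05% of UMIs, -0.04 at 5% mitochondrial UMIs or less, 0.71 without cells holding a UMI of other cell types' markers, -0.66 when Trbc2 and Mylpf were not counted among these, and -0.42 with low, middle and high cells weighted equally.

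Eno1, a glycolytic enzyme, had 114 (sitagliptin) and 195 CPM (PBS), 1.71-fold lower (1.58 to 1.85), and was the only one of 10 glycolysis genes to pass 1.5-fold. The list's median log2 ratio was -0.05, and Ldha had 372 (sitagliptin) and 396 CPM (PBS). A gene annotated as Eno1b exists beside Eno1, so reads may be divided between the copies. Sap18 had 29.4 (sitagliptin) and 53.9 CPM (PBS), 1.83-fold lower (1.57 to 2.14), and its copy Sap18b 0.778 (sitagliptin) and 2.58 CPM (PBS). Tiparp, Mbtd1, Nufip2 and Fam46a were between 1.51-fold and 1.58-fold lower.

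**Figure D4:**
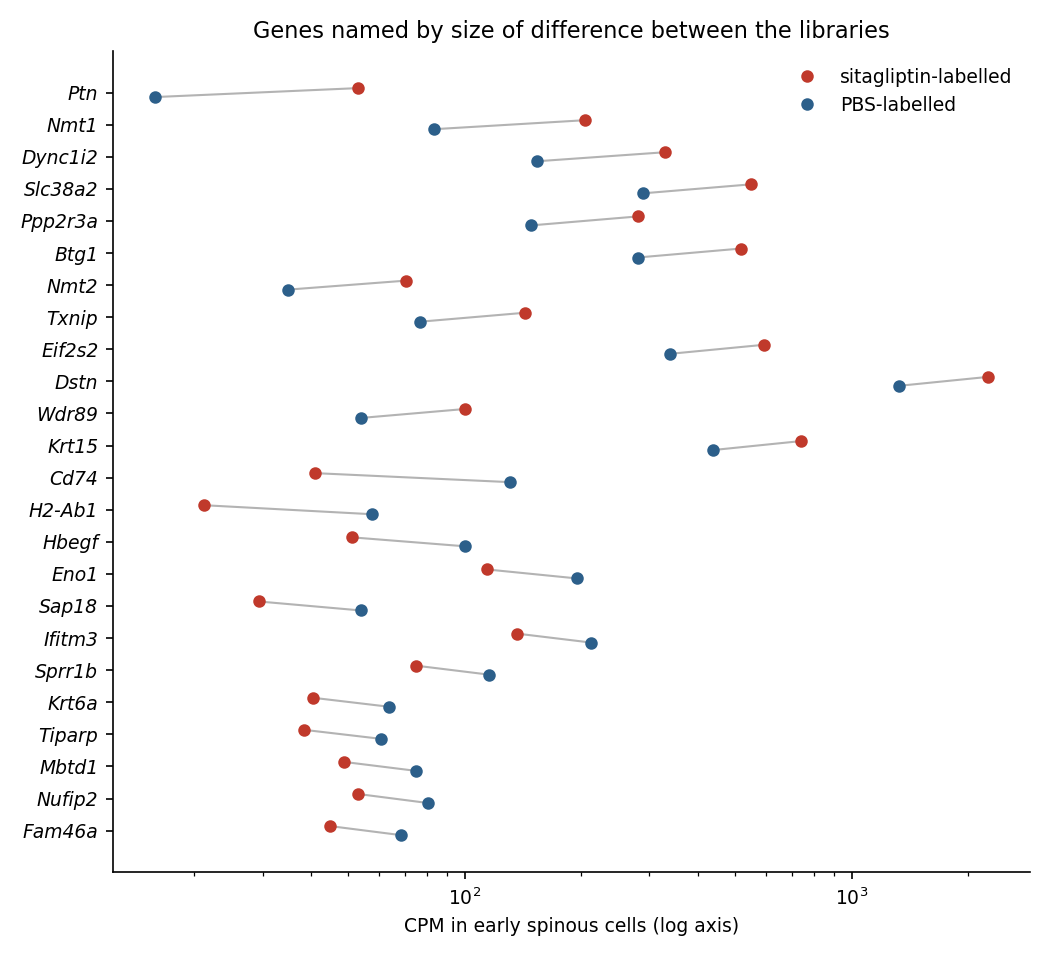
Level of the 24 genes named by size of difference in early spinous cells, in CPM on a log axis, with a red point for the sitagliptin-labelled and a blue point for the PBS-labelled library, joined by a line. The upper 12 genes, from Ptn to Krt15, are higher and the lower 12, from Cd74 to Fam46a, are lower in the sitagliptin-labelled library.

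Programmes that define the spinous state had few members past 1.5-fold between the libraries. The 20 early differentiation genes with at least 50 CPM had 1 member higher by 1.5-fold, Cnfn, at 66.1 (sitagliptin) and 41.6 CPM (PBS), and 0 lower, with a median log2 ratio of 0.12, or 0.74 in the 258 sitagliptin-labelled and 19 PBS-labelled cells without a UMI of other cell types' markers. Mt4 was lower, at a ratio of 0.858 (0.836 to 0.881), Krtdap was level at 0.996, and Sbsn and Dmkn stood at 1.16 and 1.15. With low, middle and high cells weighted equally Krtdap had a ratio of 1.04, Sbsn of 1.22 and Dmkn of 1.19. The 11 desmosome genes had 0 higher and 0 lower, with a median of 0.11. The 7 Notch genes had 0 either way and a median of 0.00, with Notch1 at 113 (sitagliptin) and 130 CPM (PBS). Transcription factors had 1 of 24 higher, Grhl3, at 54.97 (sitagliptin) and 34.98 CPM (PBS), and 0 lower, with Trp63 at 375 (sitagliptin) and 262 CPM (PBS) and Pou2f3 at 77.8 (sitagliptin) and 103 CPM (PBS). Cnfn and Grhl3 reached 50 CPM in the sitagliptin-labelled library only. Barrier lipid genes had 0 of 11 either way, and proteases and inhibitors 0 of 14.

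Of the 31 envelope genes of the granular layer 5 belong to the rule and were left out here. Of the 6 others compared, 2 were higher and 1 was lower by 1.5-fold, with a median log2 ratio of 0.57 over 18 members with at least 20 UMIs. The limit that the rule sets on granular genes bears on these too. Ivl had 179 (sitagliptin) and 114 CPM (PBS), a ratio of 1.57 (1.45 to 1.71), Hrnr 86.5 (sitagliptin) and 57.3 CPM (PBS), and Cdsn, the desmosomal protein of the cornified layer, 275 (sitagliptin) and 187 CPM (PBS), a ratio under 1.5. Sprr1b was the lower one. These levels are far from granular cells, where Ivl had 517 (sitagliptin) and 546 CPM (PBS).

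Of 10 markers of the bulge, the niche of follicle stem cells, 3 reached 50 CPM and 2 of these were higher by 1.5-fold, Krt15 and Postn, while Barx2 had 106 (sitagliptin) and 86.7 CPM (PBS). Postn had 77.4 (sitagliptin) and 44.9 CPM (PBS), so it was compared only through the library where it was higher. The other 7 markers were below that limit. Lhx2 had 12.8 (sitagliptin) and 3.01 CPM (PBS) in 65 of 1009 (sitagliptin) and 11 of 520 cells (PBS), Sox9 26.1 (sitagliptin) and 10.9 CPM (PBS), Cd34 10.1 (sitagliptin) and 3.15 CPM (PBS), and Lgr5 45 UMIs (sitagliptin) and 1 UMI (PBS). Krt75 had 10.7 (sitagliptin) and 3.44 CPM (PBS), Nfatc1 20.04 (sitagliptin) and 15.9 CPM (PBS), and Fgf18 2.63 (sitagliptin) and 1.004 CPM (PBS). The median log2 ratio of the 10 was 1.02, and 0.50 at 5% mitochondrial UMIs or less. Keratin-low barcodes of the sitagliptin-labelled library held 2084 CPM of Krt15 against 635 CPM in the PBS-labelled one, and the part of RNA from follicle cells was not tested.

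Targets of the glucocorticoid receptor had 3 of 8 genes higher by 1.5-fold and 0 lower, with a median log2 ratio of 0.33, or 0.22 with low, middle and high cells weighted equally and 0.21 at 5% mitochondrial UMIs or less. Txnip, an inhibitor of thioredoxin, had 144 (sitagliptin) and 76.7 CPM (PBS), a ratio of 1.87 (1.69 to 2.07), Zbtb16 had 86.3 (sitagliptin) and 49.0 CPM (PBS) and Tsc22d3, known as GILZ, 122 (sitagliptin) and 78.9 CPM (PBS). Of these, Zbtb16 reached 50 CPM in the sitagliptin-labelled library only. Fkbp5, a chaperone of the receptor, was below the limit of 50 CPM, at 32.8 (sitagliptin) and 14.2 CPM (PBS), a ratio of 2.31 (1.84 to 2.92). Other members had lower values in the sitagliptin-labelled library: Dusp1 had 117 (sitagliptin) and 173 CPM (PBS) and Nfkbia 158 (sitagliptin) and 218 CPM (PBS). Txnip and Zbtb16 were also higher in high than in low cells of both libraries, and Txnip in basal cells had 274 (sitagliptin) and 155 CPM (PBS).

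Interferon-stimulated genes were mostly low, and 3 of 28 were compared. Ifi27l2a had 6.13 CPM in the sitagliptin-labelled and 50.8 CPM in the PBS-labelled library and was the 1 lower gene, with 103 and 1877 CPM in keratin-low barcodes. It was compared only through the PBS-labelled library. B2m, the light chain of class I, had 984 (sitagliptin) and 681 CPM (PBS), a ratio of 1.45 (1.396 to 1.496). The median log2 ratio of the 21 members with at least 20 UMIs was -0.59, and it was 0.00 in cells thinned to 3000 UMIs and 0.07 in the 870 sitagliptin-labelled and 66 PBS-labelled cells of the subset above. Macrophage markers had a median of -4.78 and markers of Langerhans and dendritic cells one of -1.21, which was 0.06 in that subset.

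**Figure D5:**
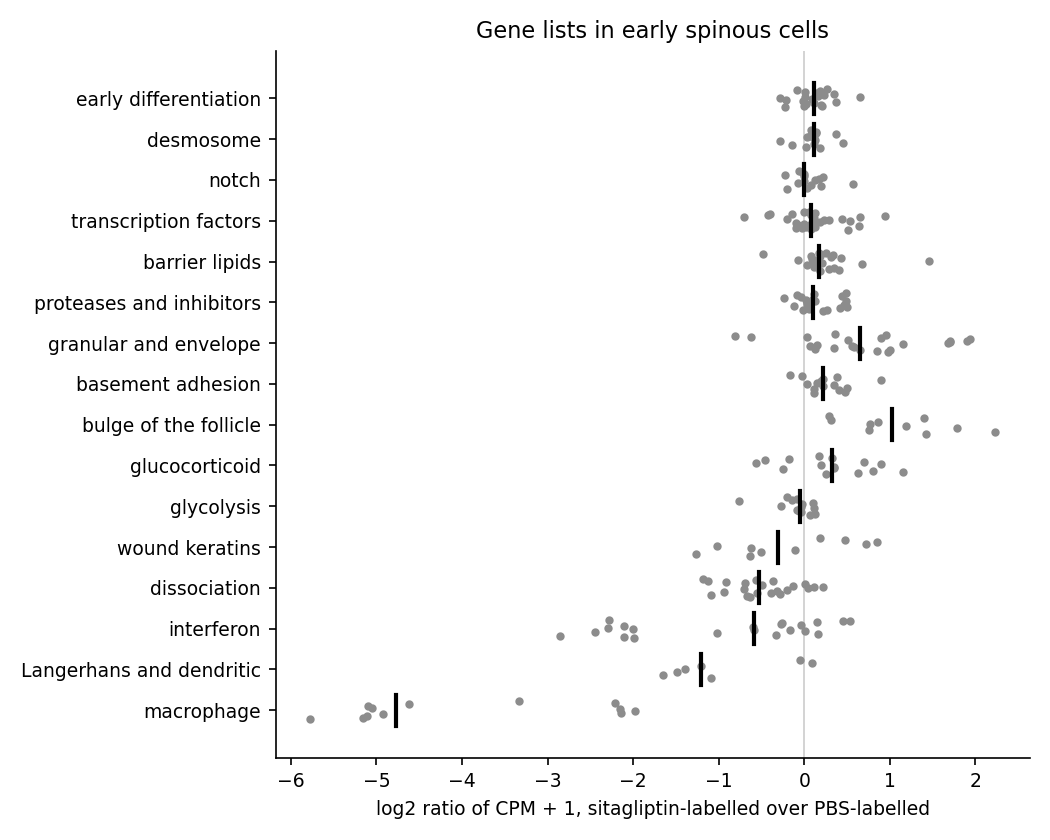
Log2 ratio of CPM + 1, sitagliptin-labelled over PBS-labelled, in early spinous cells for the members with at least 20 UMIs of 16 gene lists (grey points, 1 per gene) with the list's median (black bar). Medians of the epidermal lists lie near 0, those of bulge markers and of granular and envelope genes, 5 of which belong to the rule, above it, and those of dissociation, interferon and macrophage genes below it.

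RNA of Dpp4, the gene of sitagliptin's target DPP4, was hardly present in these cells, and the protein was not measured. Dpp4 had 73 UMIs in 65 of 1009 sitagliptin-labelled cells, or 7.10 CPM, and 67 UMIs in 57 of 520 PBS-labelled cells, or 9.61 CPM, a ratio of 0.739 (0.523 to 1.05). After thinning it was found in 2.48% of sitagliptin-labelled and 2.88% of PBS-labelled early spinous cells, in 1.64% and 1.78% of basal cells and in 0.641% and 13.7% of keratin-low barcodes. A difference between the libraries was not detectable at this depth. Among the peptidases listed with Dpp4, the intracellular Dpp3, with 101 (sitagliptin) and 98.2 CPM (PBS), and Dpp8, with 53.1 (sitagliptin) and 44.0 CPM (PBS), were present at higher levels. Xpnpep1, an aminopeptidase that cuts before proline, had 139 (sitagliptin) and 125 CPM (PBS). Of 4 genes of this list with at least 50 CPM, 0 were higher and 0 lower by 1.5-fold.

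Globin messages need their cells beside them. A single PBS-labelled early spinous cell held 972 of the 997 Hbb-bs UMIs of the PBS-labelled library, 476 UMIs of Hba-a1 and 333 of Hba-a2. Without it Hba-a1 had 42.7 CPM (exact Poisson interval 38.8 to 46.9) in the sitagliptin-labelled and 35.9 CPM (31.6 to 40.6) in the PBS-labelled library, and Hba-a1 and Hba-a2 were then no longer lower, at ratios of 1.19 and 1.14. This comparison was added after seeing the data.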

How the data were processed

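Single-cell RNA of mouse skin was measured with 10x Genomics Chromium in 1 sitagliptin-labelled and 1 PBS-labelled library. The values are the deposited raw counts of UMIs for each gene in each barcode, without scaling by the authors. The submitters' processing notes name Cell Ranger 3.1.0 and the genome build mm10. The sources used here do not say how cells were told from empty barcodes or whether counting used strand. UMIs were summed over the early spinous cells of each library and scaled to CPM, and ratios carry exact conditional binomial intervals, shares exact Clopper-Pearson intervals and levels exact Poisson intervals, all at 95% and for counting error only. No test was possible with 1 library per treatment, so genes are named by size: up to 12 in each direction at least 1.5-fold apart, ranked by the interval bound nearest to 1. Left out were genes of the rule, globin and mitochondrial genes, predicted genes, genes of ribosomal proteins, the dissociation list, sex-linked genes and those of antigen receptors, as were genes over 10 times higher in keratin-low barcodes of both libraries. The order within the cells names up to 10 genes in each direction. List medians use members with at least 20 UMIs and a pseudocount of 1 CPM, list counts those with at least 50 CPM. The members and lists were chosen with earlier results of these data known. Of 31053 gene IDs 31011 (99.9%) matched the annotation used for coordinates. Python 3.11.15, numpy 2.4.6, scipy 1.17.1, pandas 2.3.3 and matplotlib 3.10.9 were used, and the calculation was tested on simulated data. The alternatives concern thinning, level filters, scaling, cell limits and RNA of other cells.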

Additional observations from a re-analysis of the deposited data

How the results depend on the processing

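The share of early spinous cells stood 1.41 times as high in the sitagliptin-labelled library. The ratio was 0.900 with at least 1000 UMIs per barcode and 1.82 with Krt1 and Krt10 at 4% or more. It was 9.87 without cells holding UMIs of other cell types and 9.58 when Trbc2 and Mylpf were not counted among those. These latter settings filtered the early spinous cells but not the retained barcodes, so they also reflect how many early spinous cells held such RNA. The ratio lay between 1.32 and 1.43 under the other 5 limits. The 6 genes at least 2-fold higher became 19 in thinned cells, 11 from 20 CPM, 202 with no CPM minimum, 3 with totals free of mitochondrial, ribosomal and globin genes, 11 by the mean of cells' CPM, 16 at 5% mitochondrial UMIs or less, 229 without cells holding UMIs of other cell types (258 sitagliptin-labelled and 19 PBS-labelled cells) and 33 in the later version (870 and 66 cells). The 11 genes at least 2-fold lower became 34 from 20 CPM, 342 with no CPM minimum and 204 without such cells. The causes were not tested, except that lower CPM limits and fewer cells admit genes with few UMIs.

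Of 432 recomputed ratios of the 24 named genes 4 turned direction: Ifitm3 to 1.02 and Sprr1b to 1.69 without cells holding UMIs of other cell types, and Cd74 to 1.16 and Ifitm3 to 1.10 in the later version. Besides these, H2-Aa turned to 1.19 and Hba-a1 to 4.54 without such cells, Hba-a1 to 1.47 in the later version, Hba-a2 and Hba-a1 to 1.37 and 1.18 at 5% mitochondrial UMIs or less, to 1.12 and 1.16 with Krt16 under 0.05%, and to 1.14 and 1.19 without the PBS-labelled cell richest in beta-globin. The later version and the globin cell were chosen after seeing the data. No paired analysis was possible because each treatment has 1 library. Depth limits genes under 50 CPM, and the unknown spread between mice limits every difference between the libraries.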

Other observations

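Trbc2, the constant region of the T cell receptor beta chain (chr6:41546730-41548352 of mm10), had 163 CPM in sitagliptin-labelled and 162 CPM in PBS-labelled early spinous cells, in 70.2% and 76.5% of cells. Of the cells with a Trbc2 UMI 98.4% (sitagliptin) and 98.2% (PBS) had no UMI of a Cd3 gene, which T cells use together with the receptor. Trbc2 had 51.5 (sitagliptin) and 44.5 CPM (PBS) in basal and 96.6 (sitagliptin) and 111 CPM (PBS) in granular cells. After thinning to 3000 UMIs it was found in 37.2% of sitagliptin-labelled and 34.0% of PBS-labelled early spinous cells, in 12.6% and 9.21% of basal cells and in 6.41% and 2.40% of keratin-low barcodes.

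Hba-a1, an alpha-globin gene (chr11:32283511-32284465 of mm10), was also found in early spinous cells without its partner chain. All 277 sitagliptin-labelled cells with a Hba-a1 UMI had none of Hbb-bs or Hbb-bt. In the PBS-labelled library 124 of 131 such cells had none of Hbb-bs, and Hbb-bt was not looked at in that count. After thinning Hba-a1 was found in 9.32% (sitagliptin) and 9.04% (PBS) of early spinous cells, in 0.491% (sitagliptin) and 0.646% (PBS) of basal cells and in 0.641% (sitagliptin) and 0.770% (PBS) of keratin-low barcodes. Sitagliptin-labelled early spinous cells had 42.7 CPM of it and PBS-labelled ones, without the cell richest in globin, 35.9 CPM, against 43.4 (sitagliptin) and 31.7 CPM (PBS) in granular cells, so it was not particular to the early spinous layer. Hba-a2 is nearly identical to Hba-a1, and how reads were divided between them is uncertain.

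Xist, transcribed from the inactive X chromosome of female cells, had 930 CPM in 79.3% of sitagliptin-labelled and 1363 CPM in 98.1% of PBS-labelled early spinous cells. Of the Y-linked genes looked at, the sitagliptin-labelled cells had 1 UMI, of Uty, and the PBS-labelled cells 0.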
